A study of Homo sapiens with 9 samples.

Results

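Ribosome biogenesis genes encode the proteins that transcribe, modify, cut and assemble ribosomal RNA into the ribosomal subunits. A list of 50 of them was taken by name and followed in K562 cells after knockdown of DHX34 or UPF1. All 50 were matched among 58214 genes with a quantified transcript. Each also passed the filter on low counts in every comparison, which left 17004 genes for DHX34 knockdown against the control and 17184 for UPF1 knockdown against the control.

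K562 is an established human erythroleukaemia line (the cell line field of the labels spells it K652, the titles K562). The 9 libraries fell into 3 groups of 3: cells given a non-targeting siRNA (SCR, whose treatment label reads WT), a pool of siRNAs against DHX34, or siRNA against UPF1. All 3 groups were transfected, transfected again on day 3 and harvested on day 4, and RNA was sequenced after poly(A) enrichment. UPF1 is the central helicase of nonsense-mediated decay (NMD), which degrades transcripts with a premature stop codon, and DHX34 is an RNA helicase that acts in the same pathway. Both knockdowns were made by transient siRNA transfection.

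Ribosome synthesis starts in the nucleolus, where RNA polymerase I transcribes a long precursor RNA from the ribosomal DNA repeats. Small nucleolar ribonucleoproteins (snoRNPs) then guide methylation (box C/D) and pseudouridylation (box H/ACA) of the precursor. A large assembly called the small subunit processome folds and cleaves the part that becomes the small subunit, while a separate set of factors builds the large subunit and escorts it to the cytoplasm. In proliferating leukaemia cells these genes are strongly expressed, and many are known targets of the transcription factor MYC.

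Library totals ran from 73478797 to 103625443 expected counts, the counts that salmon assigns to transcripts. DHX34 mRNA was 31.4 ± 2.32 CPM (TMM-scaled counts relative to library size, SD, n = 3) in its knockdown and 73.7 ± 1.11 CPM in SCR, a log2 fold change of -1.23 (SE 0.05, adjusted p = 3.33e-07). UPF1 mRNA was 106 ± 1.46 CPM in its knockdown and 262 ± 8.12 CPM in SCR, a log2 fold change of -1.31 (SE 0.03, adjusted p = 2.41e-10). DHX34 replicate 3 stood apart from the other libraries of its group: counts differed between it and the other DHX34 libraries by a chi-square of 20.2 to 22.4 per degree of freedom, against 5.71 to 9.59 for all other replicate pairs. All 8 K562 markers were present, with summed levels of 9918 to 10729 CPM in SCR, 8542 to 9541 CPM in DHX34 knockdown and 6399 to 6688 CPM in UPF1 knockdown. Markers of other cell types summed to 111 to 113 CPM in SCR, 108 to 110 CPM in DHX34 knockdown and 90.4 to 94.5 CPM in UPF1 knockdown. Of these 8 genes 5 were under 1 CPM in SCR, and most of the sum was EPCAM. COL1A1, a fibrillar collagen gene, rose from 0.70 ± 0.09 CPM in SCR to 4.82 ± 0.51 CPM in DHX34 knockdown (SD, n = 3, log2 fold change 2.78, SE 0.16, adjusted p = 2.26e-06) and was 0.62 ± 0.15 CPM in UPF1 knockdown. EPCAM and PECAM1 fell in UPF1 knockdown (-0.26 and -0.59 on the log2 scale). The part of these shifts in the results below was not tested.

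Gene level tests used edgeR's quasi-likelihood test with TMM size factors, which set the bulk of genes to no change. A gene is said to have risen or fallen where the Benjamini-Hochberg adjusted p over all tested genes was at most 0.005, so each such change is relative to the other genes. TPM values, which divide by transcript length and fix the total of each library, gave another reference point. On log2(TPM + 0.5) the median of all genes lay above SCR by 0.16 in DHX34 knockdown and by 0.20 in UPF1 knockdown, against 0.02 in both with TMM. Changes below are therefore given relative to the median gene, and members whose direction turned on the TPM scale are named. In bulk RNA, fewer cells of a kind and less RNA per cell cannot be told apart.

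Levels in control cells spanned a wide range. Nucleophosmin (NPM1, an abundant nucleolar chaperone) was the highest at 2522 ± 203 TPM in SCR (SD, n = 3). It was followed by fibrillarin (FBL, the box C/D methyltransferase) at 601 ± 9.41 TPM and by NHP2, a core box H/ACA protein, at 518 ± 12.2 TPM. The SCR libraries of these 3 genes did not overlap. The lowest was UTP20, a scaffold of the small subunit processome, at 9.60 ± 0.64 TPM, below POLR1A, the largest subunit of RNA polymerase I, at 16.5 ± 1.03 TPM. The median member stood at 71.6 TPM, with 8 members above 200 TPM, 27 between 50 and 200 TPM and 15 under 50 TPM. Ordered by level, 26 of the 49 pairs of neighbours had overlapping SCR libraries, so the order within most of the list is not resolved, POLR1A and BMS1 (16.9 ± 0.46 TPM) among them. A single protein-coding transcript led in 46 of the 50 genes, and the leading transcript held a median of 80.9% of its gene's TPM. IMP4 and WDR12 were instead led by a transcript annotated with a retained intron. NOP56 and WDR3 were led by a transcript without a defined coding sequence.

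Many members shared a promoter element that the choice of the list did not use. RefSeq promoter windows (GRCh38.p14, 250 bases before to 50 after the transcription start) were matched for 44 of the 50 members, and 19 of these (43.2%) held the hexamer CACGTG, the E-box that MYC and related factors can bind. The hexamer is its own reverse complement, so a single search covered both strands. Of 11550 tested genes with a window, 1425 (12.3%) held it, as did 7.26% of all 35116 windows. Of the 44 members 9 had more than 1 window, and a gene was counted if any of its windows held the hexamer. In each of the 19 members at least 1 copy began between 50 bases before the start and the end of a window (in EBNA1BP2 in its other window, 42 bases after the start), which was so for 5.26% of tested genes. The hexamer was present in 12 of 23 members that fell in UPF1 knockdown (52.2%) and in 7 of 21 others (33.3%), and the median log2 fold change there was -0.15 with it and -0.10 without. Each line below gives 30 bases of the coding strand around the hexamer, which is in capitals, to show members that fell in both knockdowns, in UPF1 knockdown or in neither; they are examples and were not ranked by fold change. RRP9, FBL, GAR1 and MRTO4 fell in both knockdowns, NOP10 and PES1 in UPF1 knockdown, and DDX21 and UTP20 in neither.
RRP9 (chr3:51941892-51941921, minus strand): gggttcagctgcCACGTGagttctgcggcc
FBL (chr19:39846356-39846385, minus strand): tgcgctcttttcCACGTGcgaaagccccgg
GAR1 (chr4:109815781-109815810, plus strand): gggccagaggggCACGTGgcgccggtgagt
MRTO4 (chr1:19251807-19251836, plus strand): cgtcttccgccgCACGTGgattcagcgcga
NOP10 (chr15:34343130-34343159, minus strand): gaaattgacgaaCACGTGacgcggtcgggc
PES1 (chr22:30591880-30591909, minus strand): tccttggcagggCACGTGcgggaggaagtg
DDX21 (chr10:68956604-68956633, plus strand): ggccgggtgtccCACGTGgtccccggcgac
UTP20 (chr12:101280083-101280112, plus strand): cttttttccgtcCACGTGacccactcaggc
In RRP9 the hexamer began 5 bases before the start, in UTP20 10 bases before it and in NOP10 11 bases before it. A match of these letters is a description of the sequence and says nothing of which factor bound there. MYC mRNA itself was 367, 358 and 349 CPM in SCR, 338, 334 and 305 CPM in DHX34 knockdown and 342, 348 and 351 CPM in UPF1 knockdown. Its difference from SCR did not pass the test in either knockdown (log2 fold change -0.13, adjusted p = 0.0631, and -0.05 respectively). Among 9 genes of the MYC network, MAX, the partner of MYC, fell in both knockdowns (log2 fold change -0.20 in DHX34 and -0.24 in UPF1 knockdown). MXD1, a repressor that competes for MAX, rose in both (0.30 and 0.40). MLX fell (-0.16) and MGA rose (0.18) in UPF1 knockdown. Of all tested genes 10.4% were called in either direction in DHX34 knockdown and 25.3% in UPF1 knockdown.

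Relative to other genes, ribosome biogenesis genes were lower in both knockdowns with TMM scaling, while on the uncentred TPM scale their medians lay above SCR. In DHX34 knockdown 12 members fell and 0 rose, where 4.86% of all tested genes fell and 5.54% rose (10.4% in either direction). By unadjusted p under 0.05, 32 members differed from SCR in edgeR, and DESeq2 called 1 rise and 19 falls. The shares of all genes just given do not apply to these other rules, for which no such share is given here. The 12 falls became 3 without SCR replicate 3 or DHX34 replicate 1, 5 without SCR replicate 1, 6 without SCR replicate 2 or DHX34 replicate 2, and 12 without DHX34 replicate 3, the library that stood apart. In UPF1 knockdown 26 members fell and 1 rose, where 12.9% of all tested genes fell and 12.4% rose (25.3% in either direction). The changes were small. The median log2 fold change over the 50 members was -0.10 in DHX34 knockdown, against 0.02 over all genes, and -0.14 in UPF1 knockdown, against 0.02 over all genes. No member moved by as much as 0.5 on the log2 scale in either knockdown: the fold changes ran from -0.33 to 0.22 in DHX34 knockdown and from -0.42 to 0.17 in UPF1 knockdown.

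**Figure D1:**
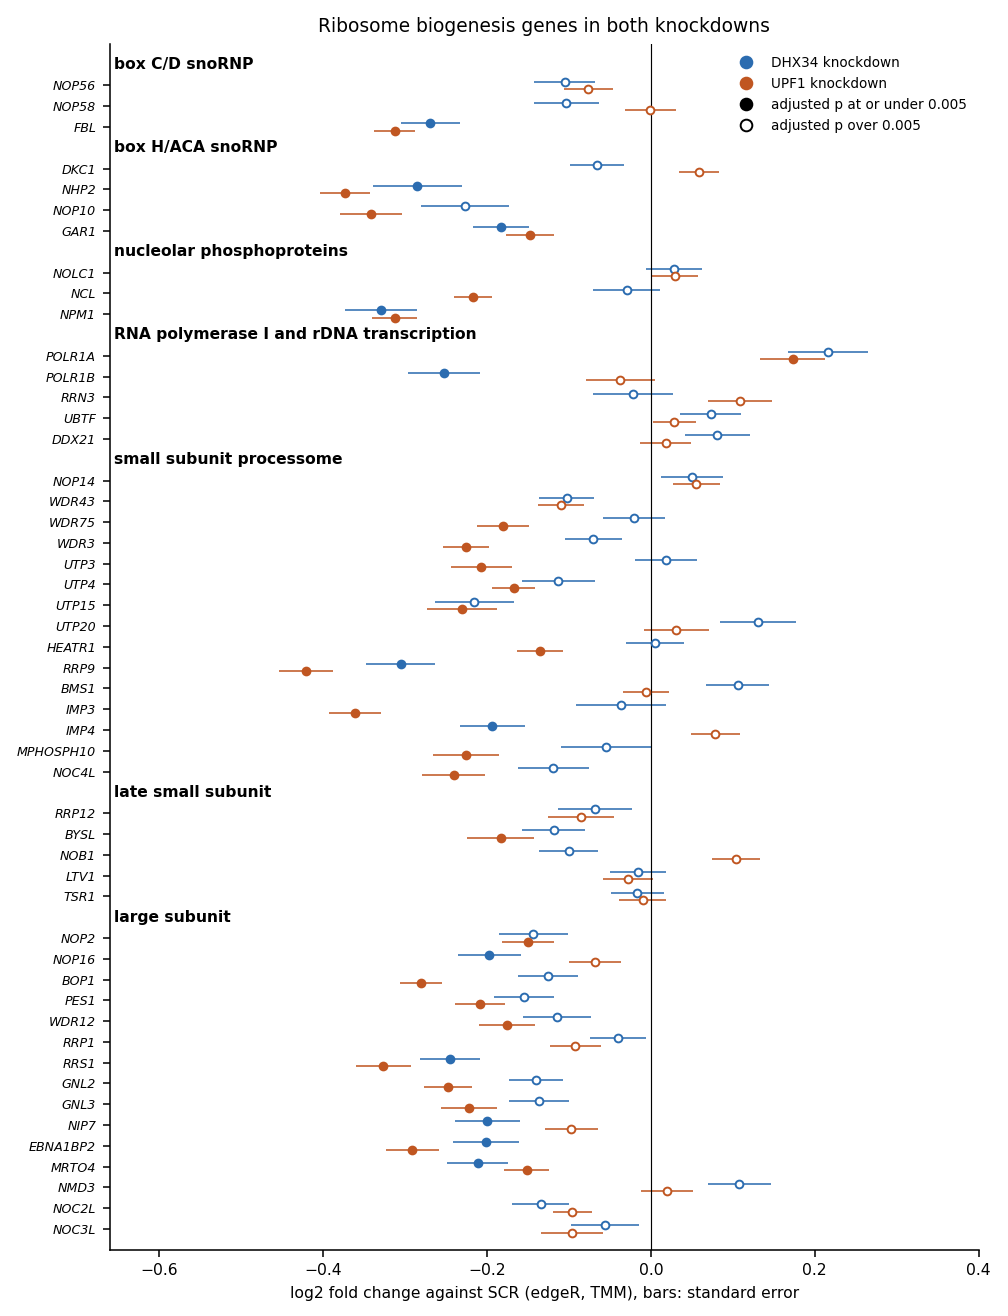
Log2 fold change against SCR (horizontal axis, edgeR with TMM size factors) of the 50 members, grouped by role, in DHX34 knockdown (blue) and UPF1 knockdown (orange). Bars are standard errors and filled points passed an adjusted p of 0.005; most points lie left of 0, with 12 falls in DHX34 knockdown and 26 in UPF1 knockdown, whereas on the uncentred TPM scale the members' medians were above 0.

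The fall was seen in each library rather than in a few. The median member lay below its SCR mean by log2 differences of -0.11, -0.10 and -0.10 in the DHX34 libraries and of -0.13, -0.11 and -0.14 in the UPF1 libraries. The libraries of the groups did not overlap for 37 members in DHX34 knockdown (31 of them lower), against 41.3% of all tested genes. The same held for 40 members in UPF1 knockdown (33 lower), against 51% of all tested genes. On the TPM scale, 1 member rose and 0 fell in DHX34 knockdown and 16 rose and 3 fell in UPF1 knockdown. Relative to the median gene on that scale the members' median was still lower, by -0.07 in DHX34 knockdown and -0.08 in UPF1 knockdown. Without a filter on low TPM, which brings in many genes near 0, the members' median was instead 0.04 and 0.06 above that of all genes. An alternative chosen after the data were seen centred each library on the median level of its genes. That level was 3.32 to 3.39 in SCR, 3.52 to 3.63 in DHX34 knockdown and 3.64 to 3.65 in UPF1 knockdown (log2 TPM). In this fit 0 members rose and 3 fell in DHX34 knockdown and 0 rose and 22 fell in UPF1 knockdown. Centring lowered every change by more than the rise of the median gene given above, so the median gene itself lay below 0 there. The share of all genes called in this fit is not given here. With library totals alone as scaling, 2 rose and 3 fell in DHX34 knockdown and 8 rose and 12 fell in UPF1 knockdown.

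**Figure D2:**
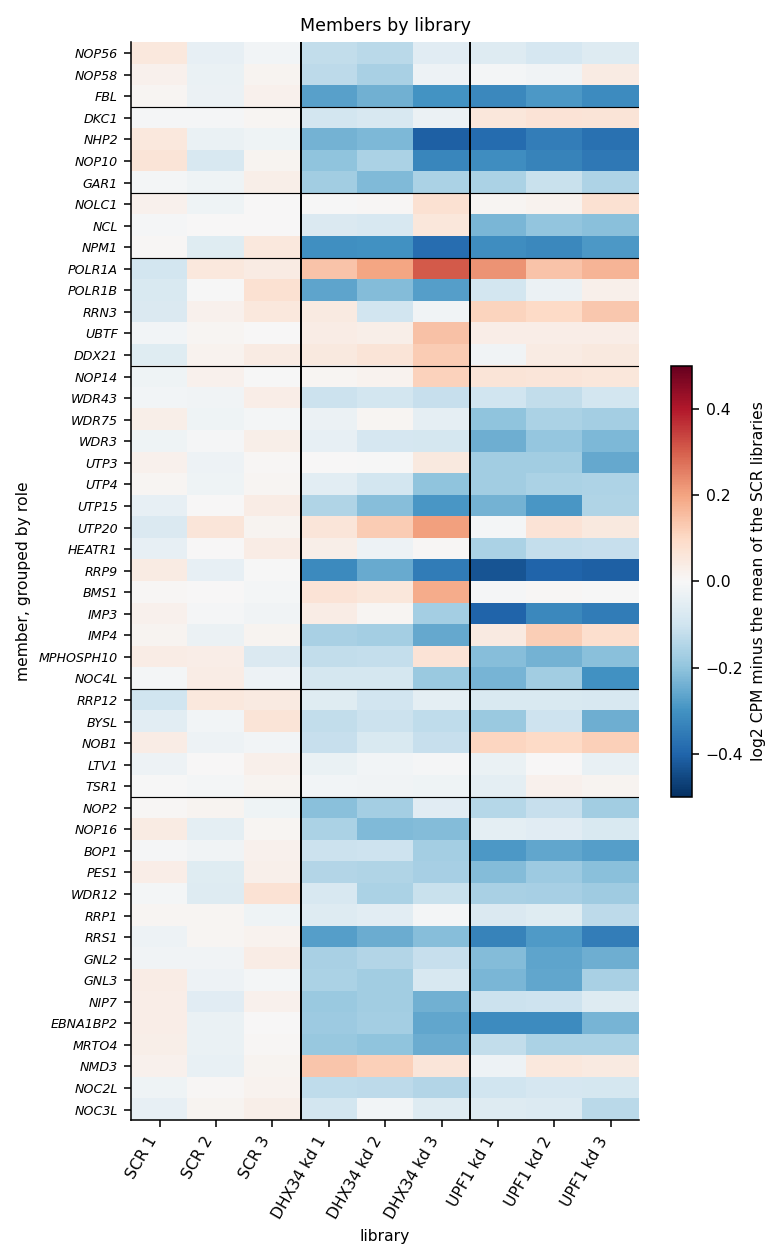
Log2 CPM (TMM-scaled) of each member (rows, grouped by role) in each of the 9 libraries (columns) minus the mean of the 3 SCR libraries; blue is lower and red is higher. FBL, NHP2, NPM1, RRP9 and RRS1 were lower in all 6 knockdown libraries, and POLR1A was higher in all 6. On the uncentred TPM scale NPM1 itself, GAR1, NCL and others reverse in UPF1 knockdown, though the protein-coding transcripts of NPM1 alone do not.

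8 members fell in both knockdowns: FBL, NHP2, GAR1, NPM1, RRP9, RRS1, EBNA1BP2 and MRTO4. Of these, GAR1, NPM1 and MRTO4 lay above SCR in UPF1 knockdown on the uncentred TPM scale (0.07, 0.04 and 0.06 on log2(TPM + 0.5)). The protein-coding transcripts of NPM1 alone were lower there, at a mean of 2150 TPM against 2304 TPM in SCR. Another 4 fell in DHX34 knockdown alone at this threshold (POLR1B, IMP4, NOP16 and NIP7), and 18 in UPF1 knockdown alone. Both comparisons used the same SCR libraries, so these sets are not independent of each other. Of the 50 members 19 passed in neither comparison.

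Among the 3 box C/D proteins FBL fell in both knockdowns (-0.07 and -0.06 on the TPM scale), and NOP56 and NOP58, which hold the complex together, were not called in either. FBL (ENSG00000105202, GRCh38 chr19:39834458-39846379, minus strand) stood at 464, 452 and 469 CPM in SCR, 383, 391 and 375 CPM in DHX34 knockdown and 369, 378 and 372 CPM in UPF1 knockdown. Every knockdown library was below every SCR library. The log2 fold change was -0.27 (SE 0.04, adjusted p = 0.000418) in DHX34 knockdown and -0.31 (SE 0.03, adjusted p = 2.05e-06) in UPF1 knockdown, and both calls held in 6 of 6 fits that left out 1 library. NOP56 had log2 fold changes of -0.11 and -0.08, and NOP58 of -0.10 and 0.00, in DHX34 and UPF1 knockdown.

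Of the 4 box H/ACA proteins NHP2 and GAR1 fell in both knockdowns and NOP10 in UPF1 knockdown, with GAR1 turning to 0.07 above SCR on the TPM scale in UPF1 knockdown. The median of the role stayed below 0 on that scale, at -0.04 in DHX34 and -0.03 in UPF1 knockdown. NHP2 (ENSG00000145912, GRCh38 chr5:178149463-178153894, minus strand) stood at 249, 234 and 236 CPM in SCR, 204, 205 and 181 CPM in DHX34 knockdown and 184, 189 and 185 CPM in UPF1 knockdown. Its groups were separate from SCR, and DHX34 replicate 3 was the lowest library of all. The log2 fold changes were -0.28 (SE 0.05, adjusted p = 0.00322) in DHX34 knockdown and -0.37 (SE 0.03, adjusted p = 2.35e-06) in UPF1 knockdown. NOP10, the smallest protein of the complex, stood at 126, 114 and 122 CPM in SCR, 105, 108 and 96.0 CPM in DHX34 knockdown and 97.1, 95.5 and 94.0 CPM in UPF1 knockdown. All knockdown libraries were below SCR, but only the UPF1 difference passed (log2 fold change -0.34, SE 0.04, adjusted p = 1.89e-05), against -0.23 with an adjusted p of 0.0102 in DHX34 knockdown. GAR1 had log2 fold changes of -0.18 and -0.15. DKC1, the pseudouridine synthase (dyskerin), was not called against SCR (-0.07 and 0.06). Leaving out single libraries ended some of these calls. In DHX34 knockdown that of NHP2 was lost without DHX34 replicate 1 (adjusted p = 0.00749) or any SCR library (0.00664 to 0.0148), and that of GAR1 without any library but DHX34 replicate 3 (0.00911 to 0.0175). GAR1 was also lost in UPF1 knockdown without SCR replicate 3, UPF1 replicate 1 or UPF1 replicate 3 (0.00608, 0.00989 and 0.00712).

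Of the nucleolar phosphoproteins NPM1 fell in both knockdowns, nucleolin (NCL, an RNA-binding protein of the nucleolus) fell in UPF1 knockdown, and NOLC1, a snoRNP chaperone, was not called (0.03 in each). In UPF1 knockdown NPM1 and NCL lay above SCR by 0.04 and 0.01 on the TPM scale. NPM1 transcripts annotated with a retained intron varied widely, at 7.07, 258 and 389 TPM in SCR and 493, 596 and 230 TPM in UPF1 knockdown. The protein-coding transcripts of NPM1 were lower without overlap, at 2149, 2123 and 2178 TPM against 2303, 2280 and 2327 TPM in SCR. NPM1 (ENSG00000181163, GRCh38 chr5:171387116-171411810, plus strand) stood at 2498, 2387 and 2579 CPM in SCR, 2010, 2018 and 1908 CPM in DHX34 knockdown and 2007, 1988 and 2038 CPM in UPF1 knockdown. The knockdown libraries lay close together and below all SCR libraries. The log2 fold change was -0.33 (SE 0.04, adjusted p = 0.000412) in DHX34 knockdown, the largest fall of the list there, and -0.31 (SE 0.03, adjusted p = 3.84e-06) in UPF1 knockdown, and both calls held in 6 of 6 fits that left out 1 library. A pseudogene copy, NPM1P9, was quantified at 0.66 TPM. That value also rests on salmon's split of reads between similar sequences, and the part of shared reads in the values of NPM1 was not tested. NCL had a log2 fold change of -0.22 in UPF1 knockdown (adjusted p = 1.73e-05) and of -0.03 in DHX34 knockdown.

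RNA polymerase I and its factors formed the 1 role whose median lay above 0 in both knockdowns, at 0.07 in DHX34 knockdown and 0.03 in UPF1 knockdown over 5 members, and it turned to -0.02 and -0.03 with the length trend removed. POLR1A (ENSG00000068654, GRCh38 chr2:86020216-86106155, minus strand) was the only member that rose in UPF1 knockdown, and it is also the longest, with an effective length of 8924 bases. It stood at 148, 164 and 162 CPM in SCR, 175, 181 and 195 CPM in DHX34 knockdown and 185, 174 and 178 CPM in UPF1 knockdown, with every knockdown library above SCR. The log2 fold change was 0.17 (SE 0.04, adjusted p = 0.00408) in UPF1 knockdown and 0.22 (SE 0.05, adjusted p = 0.00778) in DHX34 knockdown. The UPF1 call was lost without any one of the 6 libraries (adjusted p from 0.00582 to 0.0255) and after removal of the length trend (log2 fold change 0.01). POLR1B (ENSG00000125630, GRCh38 chr2:112541915-112579818, plus strand), the second largest subunit, moved the other way in DHX34 knockdown. It stood at 91.8, 96.6 and 102 CPM in SCR, 80.7, 83.2 and 79.9 CPM in DHX34 knockdown and 90.8, 94.8 and 98.4 CPM in UPF1 knockdown. The DHX34 libraries were lower than all others, and the UPF1 libraries overlapped SCR. Its log2 fold change in DHX34 knockdown was -0.25 (SE 0.04, adjusted p = 0.00192) by counts but 0.17 on the TPM scale and 0.00 with length-scaled counts, and the count-based call was lost without SCR replicate 2, SCR replicate 3 or DHX34 replicate 1 (adjusted p of 0.00836, 0.0108 and 0.0113).

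That difference between scales went with a shift among the transcripts of POLR1B. The transcript POLR1B-208 was quantified at 5.24, 6.86 and 4.43 TPM in SCR, 11.7, 11.1 and 9.52 TPM in DHX34 knockdown and 10.8, 15.3 and 16.1 TPM in UPF1 knockdown. POLR1B-204 was at 9.52, 11.1 and 10.7 TPM in SCR, 7.02, 7.56 and 8.38 TPM in DHX34 knockdown and 9.56, 12.6 and 10.7 TPM in UPF1 knockdown. The mean effective length of the gene was 3098 bases in SCR, 2567 bases in DHX34 knockdown and 2456 bases in UPF1 knockdown, so the same count gave a higher TPM in the knockdowns. These transcript values were not tested, and salmon's split of reads between similar isoforms is an estimate. WDR75 had means of 2150 bases in SCR, 1834 in DHX34 knockdown and 1807 in UPF1 knockdown, but unlike POLR1B its libraries overlapped. The SCR libraries of WDR75 were at 2267, 1903 and 2280 bases, against up to 1907 in DHX34 and 1930 in UPF1 knockdown. Its transcripts annotated with a retained intron were quantified at 0.07, 9.27 and 0.12 TPM in SCR. RRN3, the factor that recruits polymerase I, UBTF, which binds the ribosomal DNA, and the helicase DDX21 were not called (log2 fold changes of -0.02, 0.07 and 0.08 in DHX34 knockdown and of 0.11, 0.03 and 0.02 in UPF1 knockdown).

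In the small subunit processome 10 of 15 members fell and 0 rose in UPF1 knockdown, although 7 of those 10 lay above SCR on the TPM scale. That share of falls (66.7%) was near those of the large subunit factors (60%) and the box H/ACA genes (75%). In DHX34 knockdown 2 of the 15 fell, RRP9 and IMP4. RRP9 (ENSG00000114767, GRCh38 chr3:51933429-51941904, minus strand), which belongs to the U3 snoRNP, showed the largest fall of all members in UPF1 knockdown. It stood at 100, 94.4 and 97.1 CPM in SCR, 77.9, 81.5 and 76.2 CPM in DHX34 knockdown and 72.0, 73.5 and 73.1 CPM in UPF1 knockdown. The 3 groups did not overlap, with UPF1 knockdown the lowest. The log2 fold changes were -0.31 (SE 0.04, adjusted p = 0.000479) in DHX34 knockdown and -0.42 (SE 0.03, adjusted p = 1.59e-06) in UPF1 knockdown, and both calls held in 6 of 6 fits that left out 1 library.

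IMP3 and IMP4, partners of MPHOSPH10 in the U3 part of the processome, went separate ways. IMP3 stood at 139, 136 and 136 CPM in SCR, 141, 138 and 122 CPM in DHX34 knockdown and 104, 110 and 108 CPM in UPF1 knockdown. Only the UPF1 libraries were apart from SCR (log2 fold change -0.36, SE 0.03, adjusted p = 3.74e-06), against -0.04 in DHX34 knockdown. IMP4 stood at 187, 182 and 188 CPM in SCR, 166, 165 and 155 CPM in DHX34 knockdown and 191, 202 and 197 CPM in UPF1 knockdown. Its log2 fold change was -0.19 (SE 0.04, adjusted p = 0.00468) in DHX34 knockdown, a call that was lost without any library but DHX34 replicate 3 (adjusted p from 0.00802 to 0.0176), and 0.08 in UPF1 knockdown. Other members that fell in UPF1 knockdown were NOC4L (-0.24), UTP15 (-0.23), WDR3 (-0.23), MPHOSPH10 (-0.23), UTP3 (-0.21), WDR75 (-0.18), UTP4 (-0.17) and HEATR1 (-0.14). Of these, WDR75 and WDR3 stood 0.27 and 0.16 above SCR on the TPM scale, and UTP3, UTP4, UTP15, HEATR1 and MPHOSPH10 between 0.01 and 0.07 above it. The protein-coding transcripts of WDR75 alone were at a mean of 40.3 TPM in SCR and 39.8 TPM in UPF1 knockdown. Single libraries decided 5 of these calls: WDR75 was lost without UPF1 replicate 1 (adjusted p = 0.00522), UTP3 without UPF1 replicate 3 (0.00515), MPHOSPH10 without UPF1 replicate 2 (0.00605), UTP15 without UPF1 replicate 1 or 2 (0.00673 and 0.00799) and HEATR1 without any library but SCR replicate 1 (0.00622 to 0.0171). NOP14, WDR43, UTP20 and the GTPase BMS1 were called in neither knockdown, with log2 fold changes from -0.10 to 0.13 in DHX34 knockdown and from -0.11 to 0.06 in UPF1 knockdown.

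Late small subunit factors, which act on the precursor on its way to the cytoplasm, had the fewest calls of any role: 0 of 5 were called in DHX34 knockdown and 1 in UPF1 knockdown. At an unadjusted p under 0.05 edgeR gave 2 of the 5 in each. BYSL, a factor of late processing, had a log2 fold change of -0.18 in UPF1 knockdown (adjusted p = 0.00335) by counts and of 0.07 on the TPM scale, and its call was lost without SCR replicate 2 or 3 or UPF1 replicate 1 or 3 (adjusted p from 0.01 to 0.0181). The nuclease NOB1, which makes the last cut of the small subunit RNA, had log2 fold changes of -0.10 and 0.10, and RRP12, LTV1 and TSR1 lay between -0.09 and -0.01 in both knockdowns.

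Large subunit factors fell in 5 of 15 cases in DHX34 knockdown and in 9 of 15 cases in UPF1 knockdown, with NOP2, PES1 and MRTO4 lying above SCR by 0.17, 0.02 and 0.06 on the TPM scale in UPF1 knockdown. RRS1, which helps to place the 5S RNA, stood at 73.9, 75.7 and 76.1 CPM in SCR, 62.2, 63.4 and 64.8 CPM in DHX34 knockdown and 59.7, 61.9 and 59.2 CPM in UPF1 knockdown. EBNA1BP2, an early assembly factor, stood at 234, 224 and 229 CPM in SCR, 202, 204 and 192 CPM in DHX34 knockdown and 184, 184 and 195 CPM in UPF1 knockdown. MRTO4, a relative of the stalk protein P0, stood at 321, 307 and 315 CPM in SCR, 275, 273 and 265 CPM in DHX34 knockdown and 288, 282 and 282 CPM in UPF1 knockdown. In all 3 genes each knockdown library was below each SCR library. RRS1 fell by 0.24 and 0.33 on the log2 scale (adjusted p = 0.000812 and 1.23e-05), EBNA1BP2 by 0.20 and 0.29 (0.00395 and 2.13e-05) and MRTO4 by 0.21 and 0.15 (0.00197 and 0.000813).

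The PES1, BOP1 and WDR12 proteins form the PeBoW complex, and all 3 genes fell in UPF1 knockdown (log2 fold changes of -0.21, -0.28 and -0.18), with PES1 turning on the TPM scale as given above. In DHX34 knockdown they stood at -0.15, -0.13 and -0.11 with adjusted p-values of 0.0102, 0.0265 and 0.0634. Transcripts annotated with a retained intron held 86.5% of the TPM of WDR12 in SCR and 85.0% in UPF1 knockdown. Its protein-coding transcripts showed no fall on the TPM scale, at 14.2 ± 0.48 TPM in SCR and 14.9 ± 0.13 TPM in UPF1 knockdown (SD, n = 3). The nucleolar GTPases GNL2 and GNL3 (nucleostemin) fell in UPF1 knockdown (-0.25 and -0.22), as did the RNA methyltransferase NOP2 (-0.15). NOP16 and NIP7 fell in DHX34 knockdown (both -0.20) and were not called in UPF1 knockdown (-0.07 and -0.10). NMD3, the export adaptor of the large subunit, was not called and had log2 fold changes of 0.11 and 0.02. RRP1, NOC2L and NOC3L were not called in either knockdown (from -0.13 to -0.04). Leaving out 1 library at a time, the call of NOP16 in DHX34 knockdown was lost in each of 6 fits (adjusted p from 0.00585 to 0.0195), and that of EBNA1BP2 in all but the fit without DHX34 replicate 3 (0.00622 to 0.0161). NIP7 and MRTO4 were lost there without SCR replicate 1 or 3 or DHX34 replicate 1 or 2 (0.00957 to 0.0183 and 0.00721 to 0.00938), and RRS1 without SCR replicate 3 or DHX34 replicate 1 (0.00636 and 0.00684). In UPF1 knockdown NOP2 was lost in all but the fit without SCR replicate 3 (0.006 to 0.0132), WDR12 in all but those without SCR replicate 1 or 2 (0.00614 to 0.00835), and MRTO4 without UPF1 replicate 2 (0.00724). The calls of BOP1, PES1, GNL2, GNL3, RRS1 and EBNA1BP2 in UPF1 knockdown held in 6 of 6 fits.

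The knockdowns were then compared with each other, which tests where the 2 effects differ. In UPF1 knockdown 5 members were higher and 2 lower than in DHX34 knockdown, where 9.89% of all 17435 tested genes were higher and 7.47% lower (17.4% in either direction). The median over the members was -0.03, against 0.01 over all genes, and groups did not overlap for 23 members, against 45.6% of all genes. Without single libraries the higher members numbered 2 to 5. The lower ones numbered 9 without DHX34 replicate 3, 1 without DHX34 replicate 1 or UPF1 replicate 2, and 0 without DHX34 replicate 2, UPF1 replicate 1 or UPF1 replicate 3. IMP4 showed the largest positive difference (log2 0.29, SE 0.04, adjusted p = 0.000125), followed by POLR1B (0.23, SE 0.04, adjusted p = 0.000807) and NOB1 (0.22, SE 0.03, adjusted p = 0.000191). NOP16 (0.15) and DKC1 (0.14) were also higher. For these 5 genes the UPF1 libraries were all above the DHX34 libraries, as the per-library values of IMP4 and POLR1B given above show.

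NOB1 stood at 153, 147 and 148 CPM in SCR, 138, 141 and 138 CPM in DHX34 knockdown and 161, 160 and 162 CPM in UPF1 knockdown, so SCR lay between the knockdowns without overlap. DKC1 stood at 349, 350 and 354 CPM in SCR, 330, 332 and 344 CPM in DHX34 knockdown and 365, 368 and 367 CPM in UPF1 knockdown, in the same order. NOP16 stood at 112, 106 and 110 CPM in SCR, 97.9, 93.6 and 94.0 CPM in DHX34 knockdown and 105, 105 and 103 CPM in UPF1 knockdown. Here the UPF1 libraries lay between the other groups. IMP3 was lower in UPF1 than in DHX34 knockdown (log2 difference -0.31, SE 0.05, adjusted p = 0.000923), and so was UTP3 (-0.21, SE 0.04, adjusted p = 0.00163). UTP3 stood at 56.6, 54.8 and 56.0 CPM in SCR, 55.9, 55.8 and 57.7 CPM in DHX34 knockdown and 49.4, 49.4 and 46.8 CPM in UPF1 knockdown, with SCR and DHX34 knockdown overlapping.

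**Figure D3:**
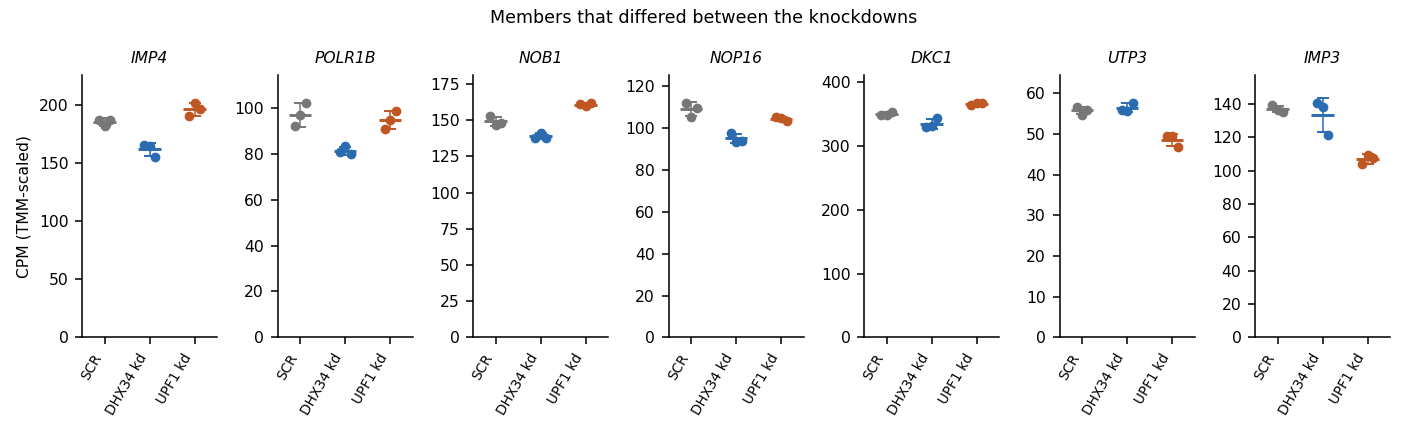
CPM (TMM-scaled, vertical axes from 0) in each library of the 7 members that differed between the knockdowns; points are libraries, horizontal lines means and error bars SD (n = 3). IMP4, POLR1B, NOB1, NOP16 and DKC1 were higher and UTP3 and IMP3 lower in UPF1 than in DHX34 knockdown.

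Of these differences, those of IMP4 and NOB1 were called in 6 of 6 fits that left out 1 library. That of POLR1B was lost without UPF1 replicate 2 (adjusted p = 0.00593), and that of IMP3 without DHX34 replicate 2, UPF1 replicate 1 or UPF1 replicate 3 (0.00538, 0.00878 and 0.00579). DKC1 and UTP3 were called only in the fit without DHX34 replicate 3 (otherwise 0.0171 to 0.0257 and 0.00621 to 0.00945), and NOP16 in none (0.00712 to 0.0257). NOP16 overlaps HIGD2A on the opposite strand, and whether reads were assigned by strand is not given in the sources used here, so reads of the pair cannot be told apart.

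Gene length went with the size of the change. Across the 50 members the log2 fold change rose with effective transcript length, with a Spearman correlation of 0.65 in DHX34 knockdown and 0.53 in UPF1 knockdown, against 0.24 and 0.15 across all tested genes. Genes share libraries and are not independent replicates. The 6 members with an effective length under 1000 bases (among them NOP10, NHP2, FBL and NPM1) had a median log2 fold change of -0.25 in DHX34 and -0.31 in UPF1 knockdown, where all genes of that class had medians of -0.10 and -0.08. The 4 longest members (POLR1A, UTP20, BMS1 and HEATR1, from 6917 to 8924 bases) had medians of 0.12 and 0.01, where all genes of that class, the longest of 6, had 0.17 and 0.13. In each of the 6 classes the members' median was below that of all genes, in both knockdowns. Between the knockdowns no such relation was seen over the members (Spearman -0.01). Mean fragment lengths were 255 bases in SCR, 259 to 260 bases in DHX34 knockdown and 252 to 257 bases in UPF1 knockdown, and their part in the relation was not tested. With the length trend of all genes removed, 10 members fell and 0 rose in DHX34 knockdown and 30 fell and 1 rose in UPF1 knockdown, with medians of -0.11 and -0.16. In that fit 5 of the 12 calls in DHX34 knockdown were lost (NHP2, GAR1, IMP4, NOP16 and EBNA1BP2).

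**Figure D4:**
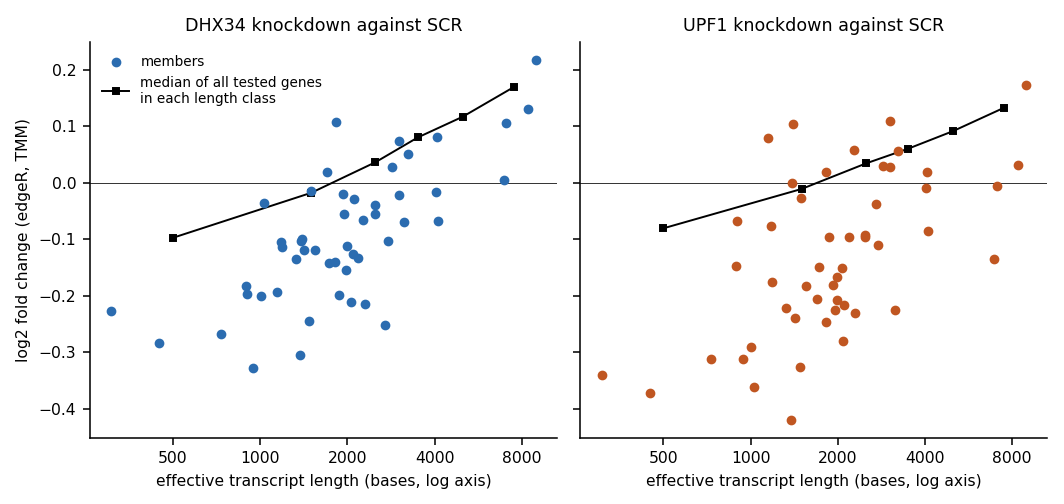
Log2 fold change against SCR (vertical axis, edgeR with TMM) of each member plotted on its effective transcript length (horizontal log axis, bases), beside the median of all tested genes in 6 length classes (black squares). Short members lie lowest, and in every class the members' median is below the black line; on the uncentred TPM scale the members' overall medians were above 0.

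As UPF1 and DHX34 act in NMD, transcripts annotated as NMD substrates were compared with the protein-coding transcripts of the same gene. The log2 ratio of their TPM was tested by limma at an adjusted p of 0.05. In UPF1 knockdown the ratio rose in 4 of 15 members that could be tested and fell in 0, where 14.3% of 3831 tested genes rose and 0.653% fell. The median change of the ratio was 0.67 over the members and 0.46 over all genes. In DHX34 knockdown 0 of 13 members passed, 1 had an unadjusted p under 0.05, and 0.136% of 3686 tested genes rose and 0.136% fell.

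The largest change was in NOP58, whose NMD-annotated transcripts, chiefly NOP58-202, stood at 3.35, 1.68 and 2.00 TPM in SCR, 4.02, 3.00 and 4.74 TPM in DHX34 knockdown and 8.44, 11.7 and 13.5 TPM in UPF1 knockdown. All UPF1 libraries were above the others, and SCR and DHX34 knockdown overlapped. The share of NMD-annotated transcripts in the gene's TPM was 2.79 ± 1.02% in SCR, 4.23 ± 0.79% in DHX34 knockdown and 10.3 ± 2.13% in UPF1 knockdown (SD, n = 3). TSR1 (mainly TSR1-202) went from 4.17 ± 0.94% in SCR to 11.5 ± 0.06% in UPF1 knockdown, NOB1 from 2.98 ± 0.88% to 6.03 ± 0.18% and GNL3 (GNL3-210) from 1.70 ± 0.26% to 3.92 ± 0.05%. The log2 ratio to the protein-coding transcripts rose by 2.09 in NOP58 (SE 0.33, adjusted p = 0.0158), 1.56 in TSR1 (SE 0.23, adjusted p = 0.0133), 1.21 in NOB1 (SE 0.28, adjusted p = 0.0396) and 1.17 in GNL3 (SE 0.23, adjusted p = 0.0274). Even after the rise these transcripts were a minor part of each gene, and of the 4 genes only GNL3 fell at the gene level.

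**Figure D5:**
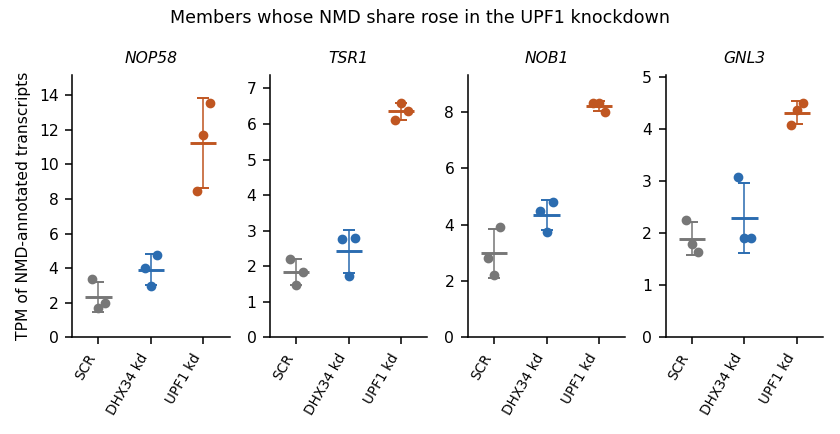
Summed TPM of NMD-annotated transcripts (vertical axes from 0) in each library for the 4 members whose ratio to protein-coding transcripts rose in UPF1 knockdown; points are libraries, lines means and error bars SD (n = 3). In each gene the 3 UPF1 libraries lie above all SCR libraries.

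These ratio calls were close to the threshold. Without any one UPF1 library, or with an adjusted p of 0.005, 0 of the 4 remained. Without SCR replicate 1, 2 or 3 the counts were 3, 2 and 2. Transcripts annotated with a retained intron gave 0 calls among 33 testable members in each knockdown, where in DHX34 knockdown 0.136% of genes rose and 0.234% fell and in UPF1 knockdown 0.0971% rose and 0.117% fell. By unadjusted p under 0.05 limma gave 3 members in DHX34 knockdown and 5 in UPF1 knockdown. NOB1, chosen here after its values were seen, had the lowest p: its transcript NOB1-203 stood at 2.51, 3.05 and 4.01 TPM in SCR, 3.80, 4.24 and 4.65 TPM in DHX34 knockdown and 15.9, 14.8 and 15.8 TPM in UPF1 knockdown, and its ratio had an adjusted p of 0.0968.

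Some members are also host genes. In all, 25 annotated snoRNA genes lie inside 7 members (NOP56, NOP58, DKC1, NCL, WDR43, TSR1 and GNL3), from which snoRNAs can be cut out of introns. Of these 7 hosts 0 fell in DHX34 knockdown (4 at an unadjusted p under 0.05) and 2 fell in UPF1 knockdown, NCL and GNL3. Of all tested genes 4.86% and 12.9% fell, and among so few hosts 0 falls is near the first share. Of the other 43 members 12 fell in DHX34 and 24 in UPF1 knockdown. The medians were -0.10 and -0.08 in the hosts and -0.11 and -0.15 in the others, and the difference between these sets was not tested. Poly(A)-selected libraries do not measure the snoRNAs themselves. An expressed gene overlapped on the opposite strand in 11 members (NHP2, RRN3, NOP14, UTP4, UTP15, HEATR1, IMP3, TSR1, NOP16, GNL3 and NIP7). Pseudogene copies were quantified at 30.0 TPM in sum for BMS1, 7.01 TPM for NOC2L, 2.12 TPM for RRN3 and 0.95 TPM for PES1, so reads may be split between copies there. The values of these genes are uncertain to that extent.

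The genes the list works with were read the same way. The counts here and in the paragraphs on other lists that follow can be set against the shares of all tested genes. In DHX34 knockdown 4.86% fell and 5.54% rose, and in UPF1 knockdown 12.9% fell and 12.4% rose. Genes for the proteins of the cytosolic ribosome itself fell in both knockdowns: 61 of 79 fell and 0 rose in DHX34 knockdown, and 75 fell and 1, RPS27, rose in UPF1 knockdown. Their median log2 fold changes were -0.31 and -0.33, and unlike those of the biogenesis genes they stayed below 0 on the uncentred TPM scale (-0.15 and -0.13), where 21 and 30 of the 79 fell. RPS20 and RPL31 fell by 0.45 and 0.44 on the log2 scale in DHX34 knockdown and RPL35 by 0.49 in UPF1 knockdown, while RPS27 was quantified at only 7.47 to 8.48 CPM in SCR. Ribosomal proteins took 22.9 to 23.5% of all TPM in SCR, 20.2 to 21.5% in DHX34 knockdown and 21.1 to 21.3% in UPF1 knockdown. The 50 biogenesis genes took 0.80 to 0.84%, 0.79 to 0.84% and 0.84 to 0.88%, with no fall on this scale.

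A further 119 assembly genes outside the list, grouped by role, included 17 that fell and 1 that rose in DHX34 knockdown and 47 that fell and 9 that rose in UPF1 knockdown, with medians of -0.09 and -0.12. On the uncentred TPM scale the medians of each of these roles lay above SCR, from 0.04 to 0.23. Among 39 other small subunit factors 7 fell and 1 rose in DHX34 knockdown and 17 fell and 1 rose in UPF1 knockdown. The helicase DHX37 fell (log2 fold change -1.53, SE 0.29, in DHX34 knockdown and -1.27, SE 0.16, in UPF1 knockdown), WDR36 rose (0.79 and 0.73), and the rRNA methyltransferase BUD23 and its partner TRMT112 fell (-0.51 and -0.60, and -0.33 and -0.47). Of 47 other large subunit factors 7 fell and 0 rose in DHX34 knockdown, and 19 fell and 6 rose in UPF1 knockdown. RSL24D1 had -0.36 and NOP53 -0.32 in DHX34 knockdown, and BRIX1 had -0.28, NVL 0.35, NOL8 0.30 and NLE1 0.29 in UPF1 knockdown.

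Of 11 other polymerase I subunits and factors 2 fell in DHX34 knockdown (POLR1G, -0.40, and POLR1E, -0.19). In UPF1 knockdown 3 of them fell, with POLR1H at -0.33 and POLR1C at -0.29, and 2 rose, TAF1D (0.61) and TAF1C (0.40), which are subunits of the promoter selectivity factor SL1. Of 13 RNA exosome genes, whose complex trims precursor RNA, 1 fell in DHX34 knockdown (EXOSC3, -0.21) and 5 in UPF1 knockdown (among them EXOSC5, -0.34, and EXOSC4, -0.32). The exosome share in DHX34 knockdown, 7.69%, was near the 4.86% of all tested genes, and in UPF1 knockdown it was 38.5% against 12.9%. Of 9 snoRNP assembly factors 0 were called in DHX34 knockdown (5 at an unadjusted p under 0.05 in edgeR) and 3 fell in UPF1 knockdown: RPAP3 (-0.25) and the helicases RUVBL1 (-0.23) and RUVBL2 (-0.22).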

How the data were processed

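RNA of 9 K562 libraries was sequenced after poly(A) enrichment. The authors quantified reads with salmon 1.5.2 against Ensembl release 93 on GRCh38 with GC bias correction, and deposited the expected count, TPM and effective length of each transcript, with no replicates pooled. Their deposited sleuth and SUPPA2 tables hold only the authors' comparisons (effects, q-values, differences in splicing) and were not used.

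Transcript identifiers were looked up in GENCODE release 44 (97.9% matched, holding 98.1% of counts), and values were summed per gene. Expected counts were rounded after summing and tested with edgeR 4.0.16 (quasi-likelihood, TMM, filterByExpr with a minimum count of 10) in R 4.3.3 for each pair of groups (6 libraries), with Benjamini-Hochberg adjustment over all genes. CPM values are TMM-scaled. Isoform ratios, log2 of NMD-annotated or retained-intron TPM over protein-coding TPM, each with 0.1 TPM added, were tested with limma 3.58.1 in genes with a class mean of at least 0.1 TPM and a gene mean of at least 1 TPM. Alternatives were DESeq2 1.42.0, other scalings, log2 TPM with pseudocounts of 0.5 and 0.1, a length correction, a replicate block, other filters and thresholds, and leaving out each library.

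The members and lists were chosen with earlier results of these data known. All members may be named. Per-library values are given for called members with non-overlapping groups, at most the 8 largest rises and 8 largest falls per comparison (the 4 largest each way for ratios), and at most 4 called genes are named per other list. The transcripts of POLR1B, WDR75 and NOB1-203, and MYC, were chosen after their values were seen. The labels give replicate numbers, and the study's methods call them biological replicates. The scripts were tested on simulated data with 200 changed genes drawn from all tested genes. Changes of 1.25-fold were called in 24% of cases for DHX34 and 40% for UPF1 knockdown against SCR. Changes of 2-fold were called in 58% and 65%, with 3 and 4 false calls. In the simulations small changes were thus often missed, more so for DHX34 knockdown, and the numbers of calls in the 2 knockdowns are not directly comparable. The changed genes were drawn at all levels of expression, and fewer genes changed than the 1768 and 4345 called in the real data. The rates therefore do not carry over to the members, for which recovery was not measured. Standard errors reflect 3 libraries per group.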

Additional observations from a re-analysis of the deposited data

Results flagged for a closer look

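7 members differed in the direct test of UPF1 knockdown against DHX34 knockdown, so their effects against SCR were unequal. Of all tested genes 17.4% were called in this test, 9.89% higher and 7.47% lower in UPF1 knockdown. The share called in either direction was smaller among the members, so the list did not differ between the knockdowns more often than genes in general. The log2 differences were 0.29 in IMP4, 0.23 in POLR1B, 0.22 in NOB1, 0.15 in NOP16 and 0.14 in DKC1, all higher in UPF1 knockdown, and -0.31 in IMP3 and -0.21 in UTP3, lower in UPF1 knockdown. In IMP4 the knockdown libraries overlapped on the TPM scale for protein-coding transcripts and not for those annotated with a retained intron. NOP16 was called in 0 of 6 fits that left out 1 library and DKC1 and UTP3 in 1 of 6, and IMP4 and NOB1 in 6 of 6. DHX34 replicate 3, which stood apart from its group, decided the count: without it 5 members were higher and 9 lower. With each TPM library centred on the median level of its genes, NOB1 was the only one of the 5 higher members and UTP3 the only one of the 2 lower members still called.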

How the results depend on the processing

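In DHX34 knockdown the members that rose numbered 0 in the test as reported. They numbered 2 with library totals only, and 1 with DESeq2, without a filter on low counts, at an adjusted p of 0.05, with all 9 libraries in the fit, and by limma on log2(TPM + 0.5), on log2(TPM + 0.1) or on unfiltered TPM. The 12 that fell became 19 with DESeq2, 22 at an adjusted p of 0.05, 3 with library totals only, 4 with length-scaled counts, 0 in the 3 uncentred TPM fits and 3 in the centred one, and from 3 (without SCR replicate 3 or DHX34 replicate 1) to 12 without single libraries. In UPF1 knockdown the 1 that rose became 0 with RLE size factors, with all 9 libraries, with centred TPM and without any single library, 8 with library totals only, 2 with length-scaled counts, 3 at an adjusted p of 0.05, 16 on log2(TPM + 0.5) or log2(TPM + 0.1) and 11 on unfiltered TPM. The 26 that fell became 12 with library totals only, 14 with length-scaled counts, 3 on log2(TPM + 0.5) or log2(TPM + 0.1) and 1 on unfiltered TPM, and ranged from 19 to 25 without single libraries. Between the knockdowns the 5 higher members became 3 with RLE size factors, without a filter, with the length trend removed and on log2(TPM + 0.5) or log2(TPM + 0.1), 2 on unfiltered TPM, 1 with length-scaled counts or centred TPM, 8 at an adjusted p of 0.05, and 2 to 5 without single libraries. The 2 lower members became 7 with DESeq2, without a filter or with all 9 libraries, 6 with RLE size factors or the length trend removed, 5 with library totals only, 9 at an adjusted p of 0.05, 1 with length-scaled counts and on log2(TPM + 0.5), log2(TPM + 0.1) or centred TPM, 0 on unfiltered TPM, and 0 to 9 without single libraries (9 without DHX34 replicate 3).

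The members' median in DHX34 knockdown was 0.0922 on log2(TPM + 0.5), filtered or not, and 0.0925 on log2(TPM + 0.1), -0.12 with centred TPM, -0.0198 with library totals only, -0.0727 with length-scaled counts and -0.1174 to -0.0918 without single libraries. In UPF1 knockdown it was 0.1228, 0.1228 and 0.124 in these fits, -0.17 with centred TPM, -0.0387 with library totals only, -0.10 with length-scaled counts and -0.16 with the length trend removed. Between the knockdowns it was 0.0121 in the 3 TPM fits, -0.0684 with centred TPM and -0.049 with the length trend removed. On log2(TPM + 0.5), filtered or not, and then on log2(TPM + 0.1), POLR1B in DHX34 knockdown turned to 0.1676 and 0.1698. In UPF1 knockdown the turned values, in the same order, were 0.0684 and 0.0686 in GAR1, 0.0074 and 0.0074 in NCL, 0.0395 and 0.0395 in NPM1, 0.2734 and 0.2757 in WDR75, 0.1606 and 0.1618 in WDR3, and 0.0083 and 0.0084 in UTP3. They were 0.0668 and 0.0671 in UTP4, 0.0156 and 0.0158 in UTP15, 0.0747 and 0.0754 in HEATR1, 0.0239 and 0.0242 in MPHOSPH10, 0.0672 and 0.0677 in BYSL, 0.1717 and 0.173 in NOP2, 0.0245 and 0.0246 in PES1 and 0.0628 and 0.0629 in MRTO4. With length-scaled counts POLR1B in DHX34 knockdown turned to 0.0009 and WDR75 in UPF1 knockdown to 0.0569. No other called member turned in any alternative. The centred TPM fit was chosen after seeing the data. It evens out the median level of the libraries and does not set the median change to 0, so its counts and medians are not relative to an unchanged median gene. The cause of these differences was not tested, except that TPM fits were set against a median gene that itself moved.

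The 4 members with a higher NMD-annotated ratio in UPF1 knockdown became 0 at an adjusted p of 0.005, and 0 to 3 without single libraries. For retained introns the 0 members became 1 with a pseudocount of 0.5 TPM in UPF1 knockdown, and ranged from 0 to 1 without single libraries in both knockdowns (1 without SCR replicate 2).

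Replicate numbers do not pair the samples: the correlation of deviations between same-numbered libraries ran from -0.0877 to 0.076. With a replicate block the members that fell were 3 in DHX34 and 25 in UPF1 knockdown and 0 rose in either, 3 members were higher and 1 lower in UPF1 than in DHX34 knockdown, and 0 NMD-annotated ratios passed. With 3 libraries per group, changes as small as most of these are near the limit of what was called.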
